A study of Spermophilus dauricus with 30 samples.

Results

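Of 26378 numeric identifiers counted in soleus and extensor digitorum longus (EDL) of Daurian ground squirrels, 184 differed at least 2-fold between the muscles in summer and had a soleus/EDL ratio between 0.8 and its reciprocal in hibernation. They were chosen by measured values. Counts were divided by a size factor for each library, the median of each group of 3 libraries was taken, and the soleus/EDL ratio of these medians had to be at least 2 or at most 0.5 in summer active animals, with the higher summer median at least 100 normalised counts. Higher in soleus in summer were 133 of the 184, called soleus-side here, and higher in EDL were 51, called EDL-side. The summer and hibernation ratios therefore describe the choice and are no finding. Whether the muscles also differed in the other 3 states is what the libraries outside the choice can show.

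The study sequenced RNA from skeletal muscle of *Spermophilus dauricus*, a rodent whose winter torpor is broken by short warm spells, in 5 states. SA stands for the active animals of summer, PRE for those about to hibernate, HIB for hibernating ones, IBA for those in an arousal between bouts and POST for those that had finished hibernating. Each state has 3 libraries whose titles carry the letter S and 3 with the letter E. The letters are read here as soleus (SOL) and EDL, which the labels do not spell out. All 30 libraries are labelled as wild type, and the treatment field carries the same entry in every one, summer included. The labels name no age, sex or animal for a library, so the p-values below measure the spread between these samples, which may in part be technical.

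The soleus is a postural muscle of the lower leg, rich in slow, oxidative fibres, while the EDL lifts the toes and is rich in fast fibres. Fibres of the 2 kinds use different isoforms of myosin, troponin and calcium pumps and differ in their reliance on fat and glucose. Use and nerve activity help to maintain these programmes, and in many mammals a muscle that is not used wastes and shifts its fibre type, whereas hibernators are known for keeping much of their muscle through months of inactivity. The identifiers are bare numbers that the count table does not pair with gene names. The muscle identity of a library could thus not be checked on fibre type markers, and the identifiers are described by their values, with 4 given by number.

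Libraries held 31442362 to 41972200 counts. All 184 identifiers passed the filter on low counts among 16946 tested, and 27 of them had under 10 counts in at least 1 library. The lowest higher summer median inside the choice was 100.01 normalised counts, against 96.1 just outside it. The summer ratio nearest to 2 was 2.01 inside and 1.99 outside, and that nearest to 0.5 was 0.499 inside and 0.501 outside. In hibernation the ratios inside ran from 0.801 to 1.24, and the nearest outside were 0.798 and 1.253. The library of POST soleus replicate 1 stood apart. Counts and medians in POST are given with it, and many of them also without it.

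The soleus-side identifiers were mostly of modest abundance, with a median of 239 normalised counts in SA soleus, while 4 of 133 reached 10000. The EDL-side identifiers had a median of 599 in SA EDL, and 7 of 51 reached 10000. The most abundant of all was an EDL-side identifier with 1020030 normalised counts in SA EDL as the group median and 430707 in SA soleus.

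In SA, by choice, the median log2 soleus/EDL ratio was 1.20 over the soleus-side identifiers and -1.20 over the EDL-side ones. The medians in HIB were 0.02 and -0.17. In PRE, which the choice did not use, the soleus-side median was 0.38 and the EDL-side median -0.68. In IBA they were 0.36 and -0.54, and in POST 0.59 and -0.62. In each of the 3 states both medians thus lay between their SA and HIB values, on the summer side of equality. The choice took large ratios in SA and ratios near equality in HIB, so a place between them was favoured in advance. Over all 16000 numeric identifiers tested, the median log2 ratio was between -0.00 and 0.03 in every state.

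**Figure D1:**
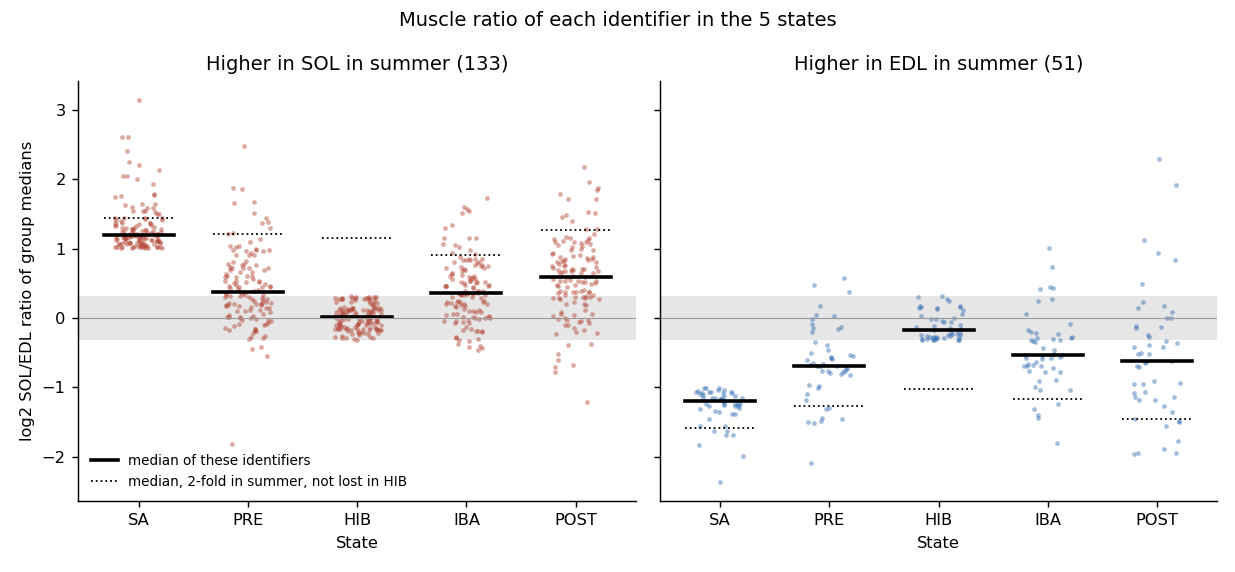
Log2 SOL/EDL ratio of the group medians (vertical axis) of each of the 184 identifiers (points) in the 5 states, with the median as a solid bar and the grey band marking the HIB window. The dotted bar is the median of identifiers that differed at least 2-fold in summer but fell outside the band in HIB, and in PRE, IBA and POST the solid bars lie between it and equality.

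Most of the 184 pointed in the summer direction in each state, and fewer were still 2-fold apart. Of the soleus-side identifiers, 109 of 133 (82.0%) were higher in soleus in PRE, 107 (80.5%) in IBA and 112 (84.2%) in POST, where 52.5%, 51.6% and 49.9% of all numeric identifiers tested were. Of the EDL-side identifiers, 45 of 51 (88.2%) were higher in EDL in PRE, 43 (84.3%) in IBA and 40 (78.4%) in POST, where 47.4%, 48.3% and 49.97% of all were. Soleus-side a 2-fold difference was kept by 18 of 133 (13.5%) in PRE, 13 (9.77%) in IBA and 29 (21.8%) in POST, where 6.66%, 5.27% and 8.25% of all were 2-fold higher in soleus. EDL-side it was kept by 11 of 51 (21.6%) in PRE, 7 (13.7%) in IBA and 17 (33.3%) in POST, where 5.63%, 5.07% and 7.25% of all were 2-fold higher in EDL. Among identifiers with a 2-fold summer difference outside the HIB window, 57.8%, 45.2% and 59.8% kept it soleus-side and 66.8%, 61.5% and 69.3% EDL-side. The shares of the 184 thus lay between those of all identifiers and those of the others with a summer difference. In POST the soleus-side count was 49 (36.8%) without soleus replicate 1, where 11.1% of all were 2-fold higher in soleus.

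Counted over the 3 states, 113 of the 184 identifiers (61.4%) were under 2-fold in PRE, IBA and POST alike, 51 reached it in 1 state, 16 in 2 states and 4 in all 3. Of those that reached it in 1 state only, POST was the state for 19 of 34 soleus-side and 10 of 17 EDL-side identifiers. Without POST soleus replicate 1, 94 (51.1%) were under 2-fold in all 3 states, and POST was the only state at 2-fold for 36 soleus-side identifiers in place of 19. Within the HIB window in all 3 states were 8 of 184 (4.35%), or 5 without that library. That window held 57 soleus-side identifiers (42.9%) in PRE, 51 (38.3%) in IBA and 33 (24.8%) in POST. The POST count was 17 (12.8%) without POST soleus replicate 1 and 9 (6.77%) without replicate 1 of both muscles. It held 9 (17.6%), 14 (27.5%) and 11 (21.6%) of the EDL-side identifiers. Among all numeric identifiers tested it held 56.0%, 58.4% and 44.9%, and the shares of the 184 on both sides lay below these, with no test made.

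The closest comparison is with the other 757 numeric identifiers that met the summer part of the choice and not the hibernation part. Their summer ratios were larger, with medians of 1.44 soleus-side (396 identifiers) and -1.58 EDL-side (361), so both sets were also restricted to summer log2 ratios between 1 and 1.5 in size. The restricted soleus-side medians were then nearly equal in SA, at 1.16 for the 107 identifiers lost in HIB and 1.17 for the 220 others. In PRE the medians were 0.32 and 0.73, in IBA 0.35 and 0.62, and in POST 0.54 and 0.87. Without POST soleus replicate 1 the POST medians were 0.76 and 0.97, and without replicate 1 of both muscles 0.90 and 1.07. The restricted EDL-side medians were -1.15 and -1.17 in SA, over 42 and 163 identifiers. They were -0.67 and -0.88 in PRE, -0.53 and -0.82 in IBA, and -0.51 and -0.97 in POST, or -0.64 and -1.12 without POST soleus replicate 1. Identifiers lost in HIB thus had the smaller median ratio in all 3 states on both sides, as a description over identifiers of the same libraries, which are not replicates and were not tested as such. The others had smaller ratios outside summer too, with restricted medians between 0.62 and 0.97 in size in those states.

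Each muscle's own level was set against SA. These values share the SA libraries that chose the identifiers and are not tested. Between SA and HIB the soleus-side identifiers had a median log2 change of -0.83 in soleus and 0.35 in EDL. Lower in soleus and higher in EDL were 80 of 133, lower in both were 40 and higher in both 13, and the soleus change was the larger for 90. In PRE their medians relative to SA were -1.13 in soleus and -0.24 in EDL, in IBA -0.68 and 0.23, and in POST -0.92 and -0.26. Soleus levels below SA were thus found for most of these identifiers in each of the 4 other states. They were 116 of 133 in PRE and 115 in POST, with 120 in HIB and 118 in IBA. Of all numeric identifiers tested 48.6% to 50.7% were below SA in soleus. The POST levels against SA include POST soleus replicate 1 and were not taken without it. EDL levels of the soleus-side identifiers were above SA for 93 of 133 in HIB and 86 in IBA, and for 50 in PRE and 47 in POST. Of all numeric identifiers tested 49.1% to 51.3% were above SA in EDL. In bulk tissue, fewer cells of a type and less RNA per cell cannot be told apart.

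For the EDL-side identifiers the lower level was in EDL. Between SA and HIB their median log2 change was -0.83 in EDL and 0.37 in soleus, and the EDL change was the larger for 32 of 51. Lower in EDL and higher in soleus were 30, lower in both were 13 and higher in both 8. Their EDL medians relative to SA were -0.41 in PRE, -0.37 in IBA and -0.30 in POST, and their soleus medians 0.29, 0.23 and 0.39. Over all numeric identifiers tested the median change from SA was between -0.01 and 0.02 in either muscle and every state.

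**Figure D2:**
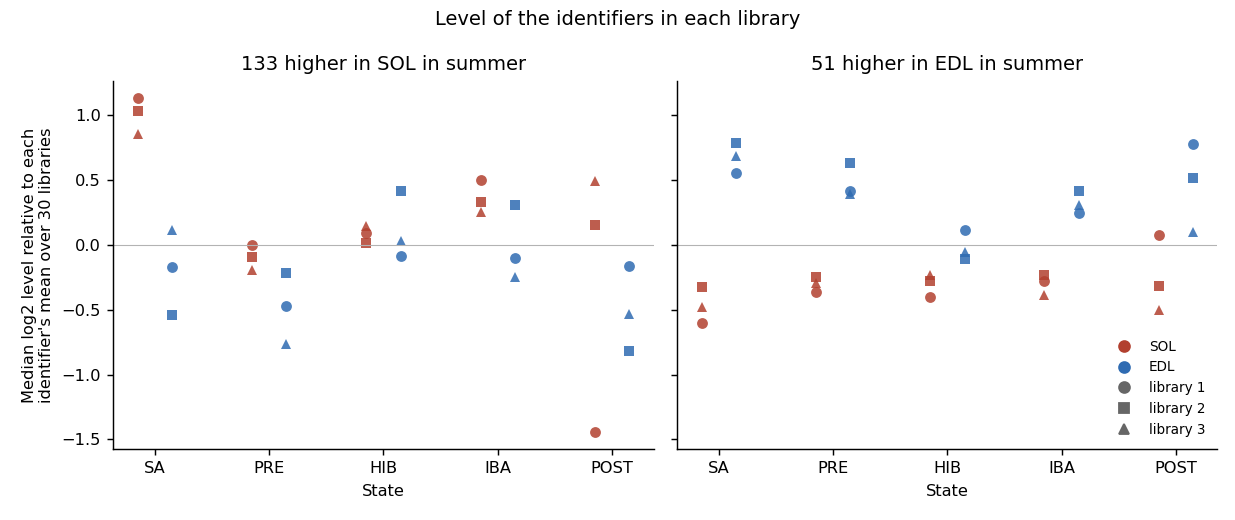
Median, over the 133 soleus-side (left) or 51 EDL-side (right) identifiers, of the log2 level in each library relative to the identifier's mean over the 30 libraries (vertical axis), with colour for the muscle and shape for the replicate number. The SA soleus libraries lie at 0.86 to 1.13 on the left, and POST soleus replicate 1 lies at -1.44, below all others.

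By library, the soleus-side median level relative to each identifier's mean was 1.13, 1.04 and 0.86 in SA soleus replicates 1 to 3. In the 3 PRE soleus libraries it was -0.00, -0.09 and -0.20. The HIB soleus libraries stood at 0.09, 0.01 and 0.14 and the IBA ones at 0.50, 0.33 and 0.25. The IBA libraries thus lay above all PRE and HIB soleus libraries and below all SA ones. The same median in EDL was -0.47, -0.22 and -0.77 in PRE. It was -0.09, 0.42 and 0.03 in HIB and -0.10, 0.31 and -0.25 in IBA. The muscles thus overlapped in HIB and IBA and not in PRE. EDL-side, all EDL libraries lay above all soleus libraries in each state, most narrowly in POST, where the highest soleus library was at 0.08 and the lowest EDL library at 0.10, and next in HIB, at -0.23 and -0.11.

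Same-numbered soleus and EDL libraries of a state vary together, so the ratio was also taken within each pair. The soleus-side median log2 ratio was 0.46, 0.08 and 0.61 in PRE pairs 1 to 3 and 0.56, 0.04 and 0.45 in IBA pairs 1 to 3. One pair in each of these states thus showed nearly no gap. The SA pairs, which chose the identifiers, stood at 1.13, 1.43 and 0.93, and the HIB pairs at 0.11, -0.43 and 0.05. The EDL-side medians were steadier, at -0.68, -0.77 and -0.55 in PRE and -0.42, -0.53 and -0.52 in IBA. All 3 pairs pointed in the summer direction for 56 of 133 soleus-side identifiers (42.1%) in PRE and 61 (45.9%) in IBA, where 24.4% and 26% of all tested had all 3 pairs higher in soleus. EDL-side it was 35 of 51 (68.6%) and 32 (62.7%), where 22.4% and 25.7% of all tested had all 3 pairs higher in EDL. In POST it was 25 of 133 (18.8%) and 25 of 51 (49.0%), beside 17.8% and 21.1%. With POST pair 1 left out, both remaining pairs did so for 119 soleus-side (89.5%) and 30 EDL-side identifiers (58.8%), beside 34.8% and 33.9%.

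**Figure D3:**
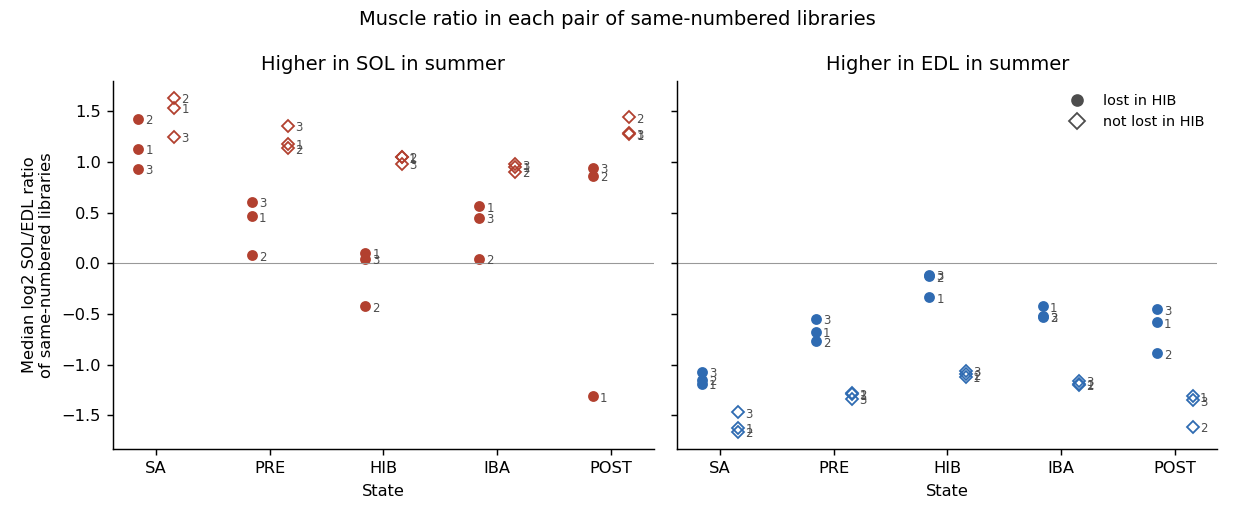
Median log2 SOL/EDL ratio within each pair of same-numbered libraries (vertical axis, numbers give the replicate) for the identifiers lost in HIB (filled) and for the others with a 2-fold summer difference (open). The open points stay between 0.90 and 1.66 in size in all pairs, while the filled soleus-side points spread from -1.31 to 0.94 in POST.

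The POST pairs of the soleus-side identifiers disagreed. Their median log2 pair ratio was -1.31 in POST pair 1 and 0.87 and 0.94 in pairs 2 and 3. In POST soleus replicate 1 their median level relative to each identifier's mean was -1.44, against 0.16 and 0.49 in replicates 2 and 3, and between -0.82 and -0.16 in the POST EDL libraries. That library also had the lowest size factor of the 30, 0.743, and its part in the result was not tested beyond leaving it out. With POST replicate 1 of both muscles left out, an alternative chosen after seeing the data, the soleus-side median ratio in POST was 0.94 in place of 0.59. The number keeping 2-fold was then 59 of 133 (44.4%) in place of 29, and 125 in place of 112 kept the summer direction. The other 396 identifiers with a 2-fold soleus difference in summer moved from 1.27 to 1.31 by the same step. The 220 of them with summer log2 ratios of 1 to 1.5 moved from 0.87 to 1.07. Pair 1 stood apart in the 396 too, with 263 higher in soleus there against 374 and 369 in POST pairs 2 and 3. EDL-side, the POST median moved from -0.62 to -0.68, and 13 in place of 17 of 51 kept 2-fold.

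The muscles were compared in each state by edgeR's quasi-likelihood test over all 16946 identifiers, and an adjusted p (Benjamini-Hochberg) under 0.05 was called passed. The spread was estimated from all 30 libraries, SA and HIB included, so these p-values are not fully independent of the choice. Fitted on the libraries of the compared state only, 11 passed in PRE, 1 in IBA and 4 in POST, beside 3.77%, 2.14% and 1.93% of all. In PRE, 8 of the 184 passed (4.35%), beside 3.88% of all identifiers tested, 2.01% higher in SOL and 1.87% higher in EDL. All 8 were in the summer direction, 6 soleus-side and 2 EDL-side, and their log2 differences ran from 0.71 to 2.20 in size. In IBA 0 passed in edgeR, beside 2.31% of all, and the smallest edgeR adjusted p was 0.0559. At an unadjusted p under 0.05 in edgeR there were 21 of 184 (11.4%), beside 11.4% of all tested. Shares of all given without a direction count both, while 150 of the 184 had the summer sign in IBA. Such shares are thus not like for like and do not show that the 184 equal the rest. In POST 18 passed (9.78%), beside 8.41% of all, 4.4% higher in SOL and 4.01% higher in EDL. They were 11 soleus-side and 7 EDL-side, all in the summer direction and with log2 differences of 0.71 to 2.67 in size. Called in both PRE and POST were 5, and 163 of the 184 were called in none of the 3 states. The same shares over all identifiers were not taken, so these joint counts show no trait of the 184. DESeq2 called 13 in PRE, 3 in IBA and 25 in POST, beside 5.93%, 3.95% and 11.5% of all. Of the 25 in POST, 24 were in the summer direction and 1 in the opposite one.

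With same-numbered libraries as a block, 26 of the 184 passed in PRE (beside 9.94% of all), 11 in IBA (beside 6.72%) and 36 in POST (beside 18.2%). All were in the summer direction but 1 in POST. Blocked, 45 passed in at least 1 of the 3 states, 5 passed in all 3 and 139 in none, again without the shares over all identifiers. Of the other 757 identifiers with a 2-fold summer difference, 322 passed without the block in PRE (42.5%), 241 in IBA (31.8%) and 408 in POST (53.9%). With both sets limited to summer log2 ratios of 1 to 1.5 in size, a comparison added after seeing the data, 6 of 149 identifiers lost in HIB passed in PRE (4.03%), 0 in IBA and 12 in POST (8.05%). Of the 383 others so limited, 93 passed in PRE (24.3%), 58 in IBA (15.1%) and 150 in POST (39.2%). These calls were not repeated without POST replicate 1. Soleus-side, all soleus libraries exceeded all EDL ones in POST for 7.48% of identifiers lost in HIB and 33.6% of the others, beside 7.65% of all. With replicate 1 of both muscles out the shares were 72.9% and 72.3%, beside 23.4% of all. EDL-side, in the reverse order, they were 23.8% and 58.3%, beside 9.03% of all. They moved to 45.2% and 76.1%, beside 21.9% of all. With 2 libraries per muscle non-overlap is easier to reach, so the shares with and without replicate 1 are not like for like. Of the 184, 14.1% passed under the block in PRE, 5.98% in IBA and 19.6% in POST. In the contrasts the choice used, 33 of 184 passed in SA (17.9%, beside 5.3% of all) and 0 in HIB (beside 3.09%, with 2 at an unadjusted p under 0.05), from which nothing is read.

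Counts moved with single libraries. Without 1 PRE library the PRE count was 2 to 6: 2 without EDL replicate 2, 3 without EDL replicate 1 or soleus replicate 1 or 2, 5 without soleus replicate 3 and 6 without EDL replicate 3. The share of all identifiers called was then 2.49% to 2.74%. The POST count was 8 without EDL replicate 2 (beside 4.7% of all) and 12 to 25 without any other, with 25 without soleus replicate 1 (13.6%, beside 9.31% of all). With POST replicate 1 of both muscles out it was 23 (12.5%, beside 6.78% of all), and 73 under the block (39.7%, beside 22.6% of all), of which 56 were soleus-side. The IBA count was 1 without IBA soleus replicate 2 (beside 1.66% of all) and 2 without POST soleus replicate 1 (beside 2.8%).

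The libraries were also compared by overlap, without a model and in the summer direction only. The shares of the 184 were above those of all identifiers in PRE and IBA and, EDL-side, in POST. Soleus-side in POST the share was near that of all with every library in. Soleus-side, all 3 soleus libraries exceeded all 3 EDL libraries for 26 of 133 identifiers (19.5%) in PRE, 21 (15.8%) in IBA and 12 (9.02%) in POST, beside 10.5%, 9.46% and 7.65% of all tested. EDL-side, all 3 EDL libraries exceeded all 3 soleus ones for 19 of 51 (37.3%) in PRE, 23 (45.1%) in IBA and 13 (25.5%) in POST, beside 10.5%, 10.8% and 9.03%. Without POST soleus replicate 1 the POST counts were 59 (44.4%) and 20 (39.2%), beside 17.3% and 16.5% of all with that library out. The reverse order without overlap was found for 0 of the 184 in any of these states with all libraries in.

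Whether the muscle difference itself changed between PRE, IBA and POST was tested as an interaction. For IBA against PRE, POST against PRE and POST against IBA, 0 of the 184 passed in edgeR and 0 in DESeq2, beside 0% of all identifiers tested in each. Under the block 0 of the 184 passed, with 0.0118% of all in POST against PRE. At an unadjusted p under 0.05 there were 2 (1.09%), 7 (3.80%) and 8 (4.35%) in edgeR, beside 1.02%, 2.72% and 2.70% of all. The differences between these 3 states in the medians above are thus not shown for any single identifier.

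The 184 also shared a wide spread between libraries of a group, which the choice did not use in PRE, IBA and POST. The SD of log2 normalised counts (with 1 count added) within those 6 groups, averaged over groups, had a median of 0.63 over the soleus-side and 0.47 over the EDL-side identifiers. Among the 11762 identifiers tested with the same summer abundance of at least 100 the median was 0.28. The other identifiers with a 2-fold summer difference had 0.59 and 0.48, close to the values of the 184. In POST soleus the soleus-side SD had a median of 1.17, against 0.40 to 0.58 in the 5 other groups. The others higher in soleus in summer also had their largest SD there, with a median of 0.82 against 0.43 to 0.56.

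The 4 identifiers with the smallest edgeR p between the muscles in SA, 2 per side, were followed through all libraries. Their genes are not named in the files. On the soleus side, 101961433 stood at 3321, 3186 and 2954 normalised counts in SA soleus replicates 1 to 3 and at 1074, 1567 and 1341 in SA EDL. In HIB it stood at 1876, 1919 and 2478 in soleus and 1338, 1745 and 1660 in EDL, where the muscles were nearer to each other and still did not overlap. In PRE its soleus libraries held 2503, 3191 and 2556 and its EDL libraries 1722, 1302 and 1118. In IBA they held 2621, 3145 and 2345 against 1842, 1719 and 1762, and in POST 4682, 4687 and 2266 against 1536, 2179 and 2400. The muscles overlapped in POST alone, through soleus replicate 3, the lowest there, which lay under EDL replicate 3. Its log2 difference was 1.01 ± 0.23 in PRE (SE, edgeR adjusted p = 0.00921), 0.61 ± 0.23 in IBA (edgeR adjusted p = 0.214) and 0.95 ± 0.23 in POST (edgeR adjusted p = 0.00937). The PRE call was lost without PRE EDL replicate 2 or 3 or PRE soleus replicate 2, and the POST call without POST EDL replicate 1 or POST soleus replicate 2.

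The other soleus-side identifier, 101955955, held 445, 252 and 362 normalised counts in SA soleus and 128, 162 and 193 in SA EDL. In HIB it held 234, 282 and 223 against 223, 180 and 217, through a lower soleus and a higher EDL, and HIB soleus replicate 3 only just exceeded EDL replicate 1. In PRE the soleus libraries held 393, 357 and 371 and the EDL libraries 224, 212 and 269, without overlap. In IBA they held 219, 256 and 255 against 200, 178 and 217, and in POST 637, 430 and 312 against 218, 266 and 299. The soleus libraries were above all EDL ones in each of the 3 states, most narrowly in IBA. Its log2 difference was 0.68 ± 0.22 in PRE (edgeR adjusted p = 0.0982), 0.30 ± 0.22 in IBA (edgeR adjusted p = 0.740) and 0.83 ± 0.22 in POST (edgeR adjusted p = 0.0212). POST soleus replicate 1 was its highest library, against the low level of most soleus-side identifiers there, and the POST call was lost without it or without POST EDL replicate 1 or 2.

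On the EDL side, 101971706 held 218, 113 and 218 normalised counts in SA soleus and 642, 856 and 572 in SA EDL. In HIB soleus it held 209, 148 and 213 and in HIB EDL 259, 259 and 325, so the soleus was near its SA level and the EDL below. In PRE the soleus held 192, 230 and 142 and the EDL 414, 720 and 473. In IBA it was 272, 169 and 255 against 355, 374 and 421, and in POST 117, 130 and 169 against 481, 519 and 301. The EDL libraries were above all soleus ones in every state. The log2 difference was -1.50 ± 0.28 in PRE (edgeR adjusted p = 0.00157), -0.72 ± 0.27 in IBA (edgeR adjusted p = 0.236) and -1.61 ± 0.28 in POST (edgeR adjusted p = 6.23e-04). Both calls held without any single library of their state. The interaction of IBA against PRE was 0.78 ± 0.39 (edgeR adjusted p = 0.99995), so a smaller difference in IBA was not shown.

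The other EDL-side identifier, 101967856, held 2819, 3244 and 3590 normalised counts in SA soleus and 7274, 6666 and 7341 in SA EDL. In HIB it held 3887, 3910 and 2916 against 4692, 5231 and 4133, again with most of the difference from SA in EDL. In PRE it held 4039, 3528 and 3494 in soleus and 6164, 6010 and 5734 in EDL, in IBA 2769, 3566 and 2832 against 4222, 4336 and 3643, and in POST 4802, 3455 and 2773 against 6511, 8072 and 3724. The muscles overlapped in POST alone, where replicate 1 was highest in soleus and replicate 3 lowest in both. Its log2 difference was -0.68 ± 0.21 in PRE (edgeR adjusted p = 0.0677, and 0.00699 blocked), -0.41 ± 0.21 in IBA (edgeR adjusted p = 0.479) and -0.71 ± 0.21 in POST (edgeR adjusted p = 0.0343). The POST call was lost without POST EDL replicate 1 or 2 or POST soleus replicate 2 or 3.

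**Figure D4:**
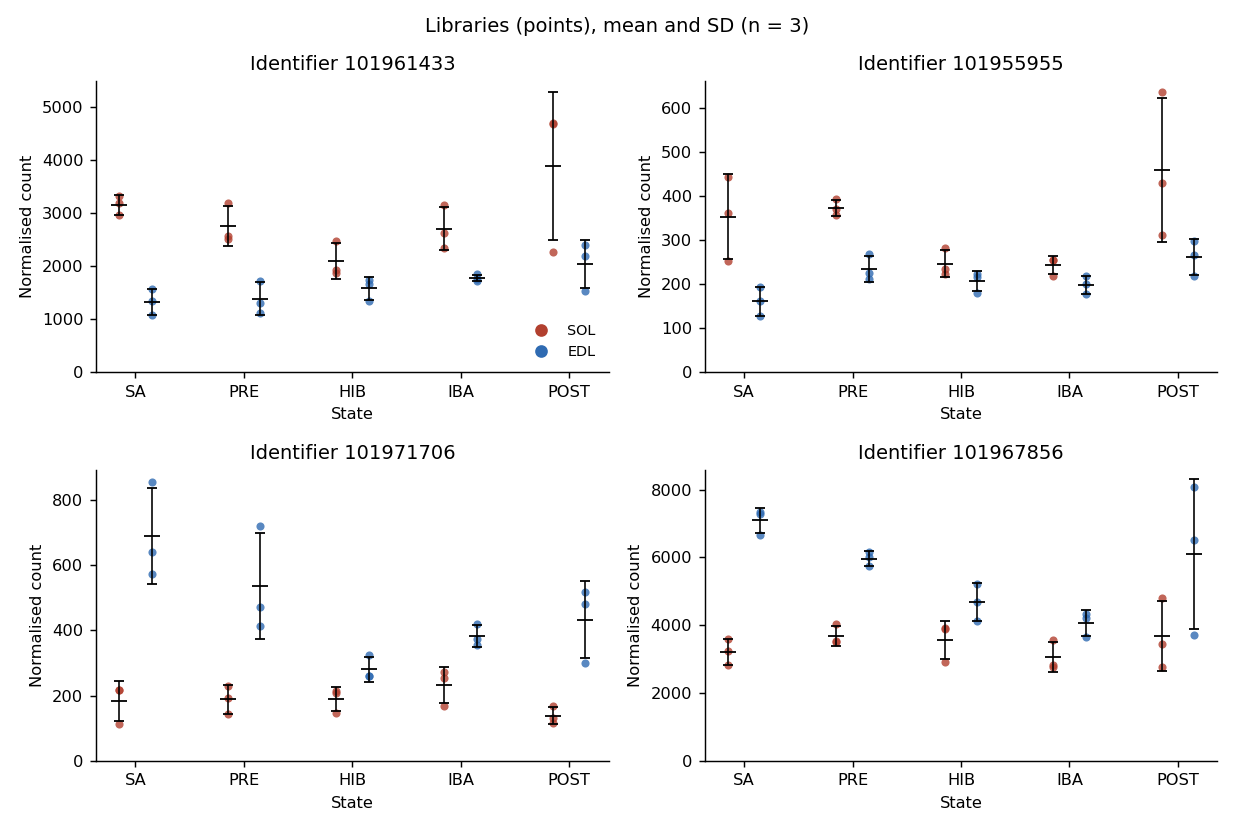
Normalised counts (vertical axes, from 0) of the 4 identifiers in all 30 libraries, as points by state and muscle, with the mean and SD of each group of 3. By group medians the muscles are closest in HIB in all 4 panels, where the choice required a ratio near equality. In 101961433 and 101967856 the muscles overlap only in POST.

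Other members, singled out by rank after their values were seen, show how wide the group is. The most abundant EDL-side identifier held 467887, 555108 and 467743 normalised counts in PRE soleus and 730878, 828776 and 757563 in PRE EDL. In IBA it held 349211, 492345 and 395196 against 630877, 733403 and 588931, so the EDL was above the soleus without overlap in both states. In HIB it held 408845, 734044 and 689116 in soleus against 687568, 610096 and 736372 in EDL, with the lowest value in soleus replicate 1. Its log2 difference was -0.62 ± 0.34 in PRE (edgeR adjusted p = 0.453), -0.65 ± 0.34 in IBA (edgeR adjusted p = 0.507) and -0.84 ± 0.34 in POST (edgeR adjusted p = 0.140, and 0.0174 blocked).

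The most abundant soleus-side identifier held 69151, 75168 and 72270 in PRE soleus against 43783, 34783 and 45403 in PRE EDL, also without overlap. In HIB EDL it reached 71737, 85563 and 48136 normalised counts, where its SA EDL libraries held 18736, 50652 and 25206. HIB EDL replicate 3 was the only one of the 3 below the highest SA EDL library. Its log2 difference was 0.82 ± 0.30 in PRE (edgeR adjusted p = 0.166), 0.51 ± 0.30 in IBA (edgeR adjusted p = 0.604) and 0.55 ± 0.30 in POST (edgeR adjusted p = 0.309).

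The EDL-side identifier with the largest gap in PRE held 452, 432 and 362 normalised counts in soleus there and 1377, 1845 and 2534 in EDL. By group medians that gap was larger than in SA, where it held 218, 172 and 183 against 676, 282 and 463. The log2 difference was -2.20 ± 0.39 in PRE (edgeR adjusted p = 8.94e-04), -0.19 ± 0.37 in IBA (edgeR adjusted p = 0.947) and -1.48 ± 0.38 in POST (edgeR adjusted p = 0.0156). Soleus-side, the identifier with the largest gap in PRE held 345, 156 and 297 in soleus and 48.0, 53.0 and 114 in EDL, and it passed in PRE, by 1.90 ± 0.51 (edgeR adjusted p = 0.0316), and in POST, by 1.66 ± 0.51 (edgeR adjusted p = 0.0428).

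Some summer ratios rested on libraries that disagreed. The soleus-side identifier with the largest summer ratio, 8.83, held 209, 238 and 64.1 normalised counts in SA soleus and 117, 23.6 and 23.7 in SA EDL, so that the groups overlapped. Its ratios in PRE and IBA were 0.886 and 0.977. An EDL-side identifier with a summer ratio of 0.465 held 15038, 509 and 639 in SA soleus and 1372, 1070 and 13644 in SA EDL. In POST it held 51782, 9314 and 4123 in soleus against 354, 5539 and 1908 in EDL, the largest reversal of the 184 by group medians, without passing (edgeR adjusted p = 0.171). In SA the muscles did not overlap for 93 of the 133 soleus-side and 34 of the 51 EDL-side identifiers, beside 14% and 13.3% of all tested. Those libraries chose the identifiers, so nothing is read from an excess over all. Of the others with a 2-fold summer difference, 76.8% soleus-side and 87.8% EDL-side did not overlap.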

How the data were processed

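Gene-level RNA sequencing counts of 30 muscle libraries in 10 groups of 3 were analysed. The authors deposited 1 table of raw counts. HISAT2 2.0.4 and HTSeq 0.9.1 are the tools listed, per the submitters' processing notes. The sources used here name no genome build, annotation or strand setting, so near-identical, overlapping or antisense genes are uncertain. Groups and numbers come from the labels. The members and lists were chosen with earlier results of these data known.

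Size factors were medians of ratios over 14678 numeric identifiers without zeros (0.743 to 1.40). Tests used R 4.3.3 and edgeR 4.0.16, with filterByExpr, TMM, 10 group means, the quasi-likelihood F test and Benjamini-Hochberg adjustment over 16946 identifiers, and were checked on simulated counts. A standard error is the log2 fold change over the square root of F. DESeq2 1.42.0 was an alternative. Ratios used Python 3.11.15.

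Numbers were checked as pairs on deviations from group means. The correlation of same-numbered soleus and EDL libraries was above 0.1 in all 15 pairs (0.13 to 0.59, median 0.44). Between different numbers of a state it was -0.42 to 0.06. The numbers are thus read as pairing the muscles, from the data and not the labels. The pairing is least clear in POST pair 1, at 0.13, where POST soleus replicate 1 with EDL replicate 2 gave 0.06. The identifiers named are the 2 per side with the smallest edgeR p between muscles in SA. The gene lists fixed by symbol were not used, as no identifier carries a symbol. At this depth the spread between libraries limits the precision.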

Additional observations from a re-analysis of the deposited data

How the results depend on the processing

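Membership depended on single libraries: without 1 SA or HIB library the choice held 159 to 320 identifiers around 184, and 105 to 150 of the 184 stayed in. With group means in place of medians it held 249, of which 79 were among the 184. A HIB window of 0.67 to 1.5 gave 324 and a 3-fold summer ratio 28. With the replicate block, pairing same-numbered muscles, 26 passed in PRE around 8, 11 in IBA around 0 and 36 in POST around 18. The share of all identifiers rose too, from 3.88% to 9.94% in PRE, 2.31% to 6.72% in IBA and 8.41% to 18.2% in POST. Without POST replicate 1 of both muscles 73 passed in POST under the block, beside 22.6% of all. The block gave 0 interactions, as did every other setting run. DESeq2 called 13 in PRE (beside 5.93% of all) and 3 in IBA (beside 3.95%). Only the compared states gave 1 in IBA (beside 2.14%) and 4 in POST (beside 1.93%). Leaving out 1 library of the state gave 2 to 6 in PRE, 0 to 1 in IBA and 8 to 25 in POST. The shares of all were then 2.49% to 2.74%, 1.11% to 1.71% and 4.7% to 9.31%. Without POST soleus replicate 1, added after seeing the data, 11 passed in PRE (beside 4.39% of all) and 2 in IBA (beside 2.8%).

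Median log2 ratios kept their sign in all settings run. Leaving out 1 library of the state, they ran soleus-side from 0.17 (without PRE EDL replicate 3) to 0.53 in PRE, from 0.21 (without IBA EDL replicate 3) to 0.48 in IBA and from 0.17 (without POST soleus replicate 3) to 0.80 in POST, where EDL replicate 2 left out gave 0.29. EDL-side they ran from -0.69 to -0.52, from -0.60 to -0.47 and from -0.95 (without POST EDL replicate 3) to -0.51. Members chosen by group means had -0.61 in IBA EDL-side, and group means gave 0.37 in POST soleus-side. Causes were not tested. In every setting 101961433, 101955955, 101971706 and 101967856 pointed in the direction first given, and with only the compared states the POST calls of 101961433, 101955955 and 101967856 were lost (edgeR adjusted p = 0.267, 0.319 and 0.417).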
